A study of Sus scrofa with 8 samples.

Results

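Genes of the heat shock and chaperone system were followed in the pig olfactory epithelium (OE), chosen by name: the 10 genes whose Ensembl pig gene name (Sscrofa11.1) is HSPH1, HSPA8, HSP90AA1, DNAJB1, BAG3, HSPB1, HSPD1, HSPA5, HSP90B1 or DDIT3, out of 22516 genes in the files. All 10 were found and all 10 had counts in every library. The measurement was RNA-seq of 8 OE libraries, 4 from control sows and 4 from sows given androstenone, the steroid pheromone of boar saliva. The 4 sows, 2 in each group, were 8 months old, in estrus and born to Landrace boars and Rongchang dams. In the androstenone group Boarmate, a commercial spray of the pheromone, was applied to the nasal cavity, whereas the controls got no spray of any kind, so that the act of spraying and the pheromone cannot be told apart. The OE was taken 30 min later from the left and from the right side of each sow, as separate libraries. The sources used here do not say which libraries share a sow, so each p-value below treats 4 libraries as replicates where there were 2 animals.

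Molecular chaperones bind proteins that are not yet folded or have come unfolded, and keep them from clumping until they fold or are destroyed. Cells carry separate sets for each compartment. In the cytosol and nucleus, HSP70 proteins such as HSPA8 take up a client with the help of a J-domain partner such as DNAJB1, release it with the help of an exchange factor such as HSPH1 or BAG3, and can pass it on to HSP90. Many of these genes are induced by heat shock factor 1 when unfolded protein builds up in the cytosol, whereas HSPA8 is the constitutive HSP70. In the endoplasmic reticulum (ER), where secreted and membrane proteins including odorant receptors are made, HSPA5 and HSP90B1 do the like work and are induced by the unfolded protein response, whose late arm includes the transcription factor DDIT3. Cells of the nasal lining that secrete, that build cilia or that make odorant receptors all draw on these systems.

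The 10 genes lie apart from each other in the genome (RefSeq annotation of Sscrofa11.1). HSPH1 lies on chromosome 11 (7733874 to 7759528), HSPA8 on chromosome 9 (49982278 to 49986760), DNAJB1 on chromosome 2 (64761672 to 64764482) and BAG3 on chromosome 14 (129510240 to 129533998). HSPB1 lies on chromosome 3 (10038074 to 10039441), HSPD1 on chromosome 15 (101360355 to 101373498) and HSPA5 on chromosome 1 (265930044 to 265934959). HSP90B1 (80511513 to 80531016) and DDIT3 (22785441 to 22789867) are both on chromosome 5, far from one another, and HSP90AA1 is on a sequence not placed on a chromosome. HSPA8, HSP90AA1 and the other HSP70 and HSP90 genes resemble close relatives in sequence, and the way reads shared between such relatives were divided by the quantification was not checked here.

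Deposited count totals were uneven. Control 1 held 4178330 counts and the other 7 libraries 81580146 to 100685566, so the smallest count of any of the 10 genes was 98 in control 1 (DDIT3, counting error 10.1%) and 1509 elsewhere. The paper's sequencing summary lists clean reads for its Control 1 within the range of its other libraries. The low count total of control 1 was thus not matched by low sequencing depth there, and where the difference arose was not tested. In control 4 the 10 most abundant genes took 29.4% of the counts, against 6.57% to 9.02% in the others, and its TMM factor, which corrects library totals for such a shift, was 0.687. CPM below are count levels relative to the TMM-scaled library total unless stated. No pair of libraries of a group agreed within sampling noise. The labelled tissue was checked with 11 genes of olfactory sensory neurons. Their summed level was 303 to 677 CPM in the control and 296 to 414 CPM in the androstenone libraries, RTP2 was at 0 in all 8, RTP1 and GNG13 stayed below 1 CPM in all 8, and OMP matched no identifier and was not analysed here. Most of the sum came from ANO2 (19 to 292 CPM), STOML3 (48.8 to 224 CPM, highest in control 3 and androstenone 1 and 2) and NCAM1 (373 CPM in control 4), so the sum is a weak measure of sensory neurons.

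Levels were compared between genes in TPM, which is scaled for transcript length. HSP90AA1, the inducible cytosolic HSP90, and HSPA8, the constitutive HSP70, stood at the top with means of 861 ± 502 TPM and 701 ± 237 TPM (SD, n = 8 libraries). HSP90AA1 exceeded HSPA8 in only 3 of 8 libraries, so that the order of these neighbours was not the same from library to library. HSPA5, the ER HSP70 also called BiP, followed at 275 ± 45.9 TPM, and HSP90B1, the ER HSP90, at 256 ± 30.8 TPM. HSPA5 was the higher of that pair in 5 libraries, HSP90B1 was above the next gene in 6, and neither gap was larger than the spread. HSPB1, the small heat shock protein that holds unfolded clients without ATP, had 235 ± 76.8 TPM, above HSPD1 in all 8 libraries.

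HSPD1, the chaperonin of the mitochondrial matrix, had 134 ± 48.3 TPM and was above DNAJB1 in all 8 libraries. The lower part of the order held DNAJB1 at 56 ± 12.4 TPM, DDIT3 at 47 ± 4.53 TPM, HSPH1 at 45.6 ± 27.4 TPM and BAG3 at 31.2 ± 6.36 TPM. DDIT3 exceeded HSPH1 in 4 of 8 libraries, so these neighbours could not be ranked either. By mean TPM all 10 lay between percentiles 80.5 and 99.2 of the genes tested. The order of the means was the same without control 1.

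**Figure D1:**
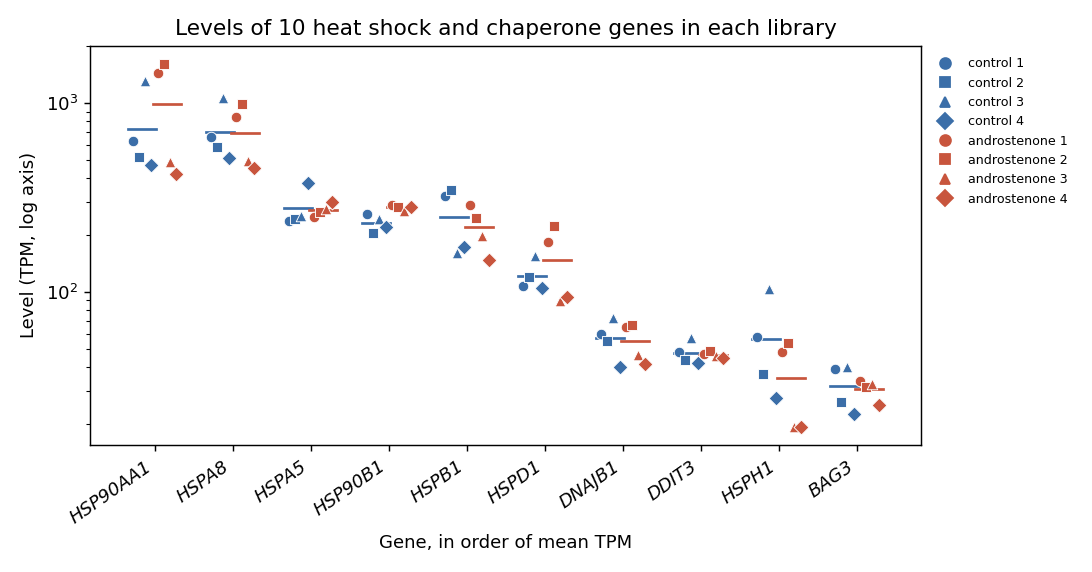
Level of each of the 10 genes in each library (TPM, log axis), with genes in order of mean TPM. Blue marks are the 4 control and red marks the 4 androstenone libraries, with a shape for each library number, and each short line is a group mean. HSP90AA1 spans 421 to 1610 TPM across libraries, whereas HSP90B1 stays within 205 to 290 TPM.

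The genes differed in how much they varied between libraries. HSPH1 and HSP90AA1 had the widest ranges, with coefficients of variation of 60% and 58.3% in TPM and highest-to-lowest ratios of 5.31 and 3.82. In TPM, DDIT3, HSP90B1 and HSPA5 varied least, with 9.65%, 12% and 16.7%. On the CPM scale the highest library exceeded the lowest 4.9 times for HSPH1, 3.96 times for HSP90AA1, 2.04 times for HSPA5, 1.72 times for HSP90B1 and DNAJB1, 1.57 times for BAG3 and 1.34 times for DDIT3, against a median of 2.12 times over the 11479 genes with a mean of at least 10 CPM.

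The question put to the groups was whether the pheromone spray went with a change of these transcripts in the OE after 30 min. At the study's cutoff (unadjusted p under 0.05 and a log2 fold change of 1 or more in either direction, edgeR quasi-likelihood test), 0 of the 10 genes were called, against 1368 of 21318 genes tested (6.42%; 2.04% higher and 4.38% lower in androstenone). At an unadjusted p under 0.05 alone, 0 of 10 were called, against 5.09% of all genes higher and 6.24% lower. After Benjamini-Hochberg adjustment the quasi-likelihood test and voom called 0 genes of the whole table (2415 had an unadjusted p under 0.05), edgeR's exact and likelihood ratio tests 157 and 200 and DESeq2 670, none of them among the 10. The quasi-likelihood adjusted p of the 10 lay between 0.467 and 0.967. Of the 10, DESeq2, limma voom, limma on log2(TPM + 1) and the fit without control 4 each gave 1 unadjusted p under 0.05, that of HSP90B1 in each case. In bulk tissue fewer cells of a type and less RNA per cell cannot be told apart, which holds for every level below.

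Among the cytosolic genes the largest difference of means belonged to HSP90AA1. Its level was 1030, 845, 2210 and 1010 CPM in control libraries 1 to 4 and 2880, 3050, 930 and 770 CPM in androstenone libraries 1 to 4. Control 3 and androstenone 1 and 2 were high and the other 5 libraries low, so each group held libraries of both kinds and the groups overlapped. The log2 fold change, androstenone over control, was 0.58 (SE 0.54; 95% interval -0.65 to 1.82; edgeR adjusted p = 0.678). It ran from 0.24 without androstenone 2 to 0.99 without control 3.

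HSPA8 was at 909, 796, 1500 and 906 CPM in the controls and at 1410, 1550, 778 and 688 CPM in the androstenone libraries. The same 3 libraries were high and the groups overlapped, with a log2 fold change of 0.11 (SE 0.35; 95% interval -0.69 to 0.9; edgeR adjusted p = 0.919). DNAJB1, which delivers clients to HSP70 and starts its ATP cycle, had 89.6, 81.8, 112 and 77.2 CPM in the controls and 118, 115, 80.4 and 68.9 CPM after the spray. Its log2 fold change was 0.09 (SE 0.22; 95% interval -0.42 to 0.6). The interval of DNAJB1 keeps within a log2 change of 1 in either direction, which that of HSP90AA1 does not.

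HSPH1, an HSP110 protein that frees HSP70 of its spent nucleotide, had the lowest log2 fold change of the 10, within the spread of the libraries. It was at 123, 77.6, 223 and 75.6 CPM in the controls and at 123, 131, 47.5 and 45.5 CPM in the androstenone libraries. The lowest values were those of androstenone 3 and 4 and the highest that of control 3. The log2 fold change was -0.52 (SE 0.49; 95% interval -1.63 to 0.59; edgeR adjusted p = 0.677), and -0.08 without control 3.

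BAG3, the exchange factor that links HSP70 to selective autophagy, had 64.4 ± 14 CPM in the controls and 67.7 ± 10.3 CPM in the androstenone group (SD, n = 4), with a log2 fold change of 0.07 (SE 0.2; 95% interval -0.39 to 0.53). HSPB1 was at 129, 138, 65.9 and 89 CPM in the controls and at 139, 113, 91.7 and 65.6 CPM after the spray. In HSPB1 control 3 was among the low libraries, the reverse of its place in HSPA8, HSP90AA1 and HSPH1. The log2 fold change of HSPB1 was -0.04 (SE 0.3; 95% interval -0.74 to 0.65). The mitochondrial HSPD1 had 142, 157, 208 and 178 CPM in the controls and 293, 339, 136 and 137 CPM in the androstenone libraries, so that the androstenone group held both its highest and its lowest values. Its log2 fold change was 0.4 (SE 0.34; 95% interval -0.37 to 1.17; edgeR adjusted p = 0.648).

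Of the ER chaperones, HSP90B1 was at 559, 440, 535 and 616 CPM in the controls and at 756, 694, 671 and 678 CPM in the androstenone libraries. Every androstenone library was above every control library. That was so for 1 of the 10 genes, against 3.89% of all genes tested in this direction and 2.64% in the other. The means were 537 ± 73 CPM and 700 ± 38.7 CPM (SD, n = 4), a log2 fold change of 0.38 (SE 0.18; 95% interval -0.04 to 0.8; edgeR adjusted p = 0.467). The exact two-sided permutation test over libraries gave p = 0.0286, the smallest that 70 assignments allow, and the test gave 0.4 to 1 in the other 9 genes. The groups of HSP90B1 were also apart in CPM of the plain library total and in TPM, where the means were 232 ± 23.4 TPM and 280 ± 8.81 TPM.

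HSPA5 had 364, 368, 390 and 740 CPM in the controls and 456, 462, 485 and 506 CPM in the androstenone libraries. The 4 androstenone values lay close together, above 3 of the controls and below control 4. The log2 fold change was 0.04 (SE 0.27; 95% interval -0.58 to 0.65; edgeR adjusted p = 0.967), and 0.35 without control 4. The place of control 4 depended on the scale: without the TMM factor it had 508 CPM of HSPA5, below the 560 CPM of androstenone 4, and in TPM it was again the highest at 377. DDIT3, the pro-apoptotic transcription factor also called CHOP, was at 20.1, 18.2, 24.3 and 22.7 CPM in the controls and at 23.9, 23.5, 22.3 and 20.7 CPM after the spray. Its log2 fold change was 0.08 (SE 0.16; 95% interval -0.28 to 0.44; edgeR adjusted p = 0.846), the narrowest interval of the 10.

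**Figure D2:**
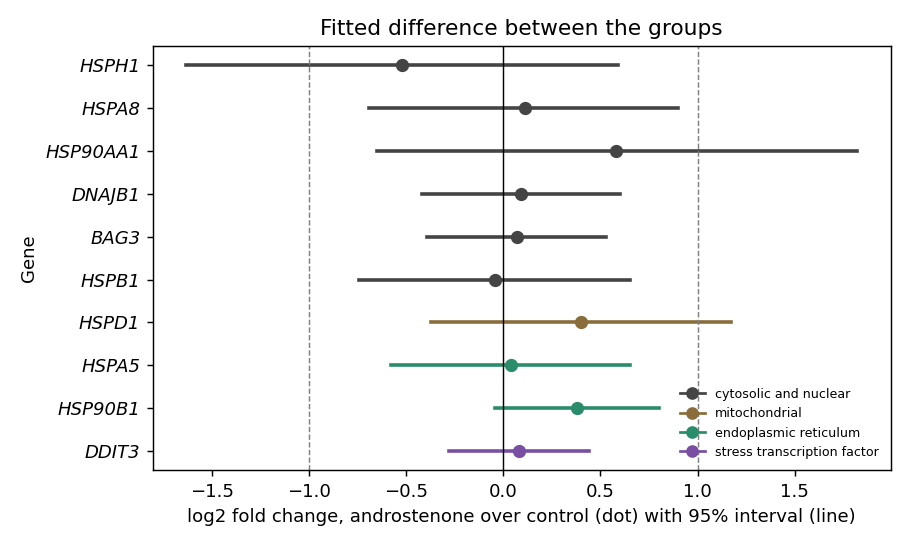
Fitted log2 fold change of each gene, androstenone over control (dots), with its 95% interval (lines), coloured by compartment. Dashed lines mark the study's fold cutoff of 1 in each direction. All 10 intervals include 0, and those of HSPH1, HSP90AA1 and HSPD1 run past a dashed line.

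The larger differences lay between libraries within each group. Of the 10 genes, 6 (HSPH1, HSPA8, HSP90AA1, DNAJB1, HSPD1 and DDIT3) had their 3 highest values in control 3, androstenone 1 and androstenone 2. This set of libraries was noticed in the values of the 10 genes themselves, so its count is a description, and 22.9% of the 11479 genes of at least 10 CPM had the same 3 libraries on top. In HSPH1 androstenone 1 and control 1, the next library, were equal to 3 digits, at 123 CPM, whereas in HSP90AA1 the lowest of the 3 was 2.14 times the next library and in HSPA8 1.55 times. On CPM of the plain library total and on TPM the count was 4 of 10 (HSPA8, HSP90AA1, DNAJB1 and HSPD1), against 20.1% and 22% of genes.

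Ratios within a library, taken in TPM, showed how closely genes kept step. The ratio of DNAJB1 to HSPA8 stayed between 0.068 and 0.0947, a 1.39-fold range, while HSPA8 itself had a 2.36-fold and DNAJB1 a 1.83-fold range. It was lowest in androstenone 2 (0.068), control 3 (0.0683) and androstenone 1 (0.0771), with control 4 (0.078) next. DNAJB1 was thus lower per HSPA8 transcript in the libraries where HSPA8 was highest. The ratio of HSP90AA1 to its constitutive relative HSP90AB1, by contrast, was 1.5, 1.01, 2.81 and 1.27 in the controls and 3, 3.25, 0.955 and 0.901 in the androstenone libraries. The inducible HSP90 transcript was thus about 3 times the constitutive one in androstenone 1 and 2 and below it in androstenone 3 and 4. HSP90AB1 itself, at 605, 730, 689 and 693 CPM in the controls and 840, 821, 852 and 749 CPM after the spray, showed no such split (log2 fold change 0.26, SE 0.18, edgeR adjusted p = 0.57). As in HSP90B1, every androstenone library of HSP90AB1 was above every control library.

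The ratio of ER to cytosolic HSP70, HSPA5 to HSPA8, ran from 0.235 in control 3 to 0.736 in control 4, a 3.13-fold range, and was 0.437 ± 0.213 in the controls and 0.447 ± 0.196 in the androstenone group (SD, n = 4). The ratio of ER to cytosolic HSP90, HSP90B1 to HSP90AA1, ran from 0.174 in androstenone 2 to 0.672 in androstenone 4. In both ratios control 3 and androstenone 1 and 2 were the 3 lowest libraries. HSPH1 against HSPA8 was 0.087, 0.0629, 0.0959 and 0.0538 in the controls and 0.0565, 0.0546, 0.0393 and 0.0426 in the androstenone libraries, so that HSPH1 was lower per HSPA8 transcript in androstenone 1 and 2 than in control 3, although all 3 were high in HSPA8. These ratios were chosen from the 2 compartments and the HSP70 cycle and were not tested.

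**Figure D3:**
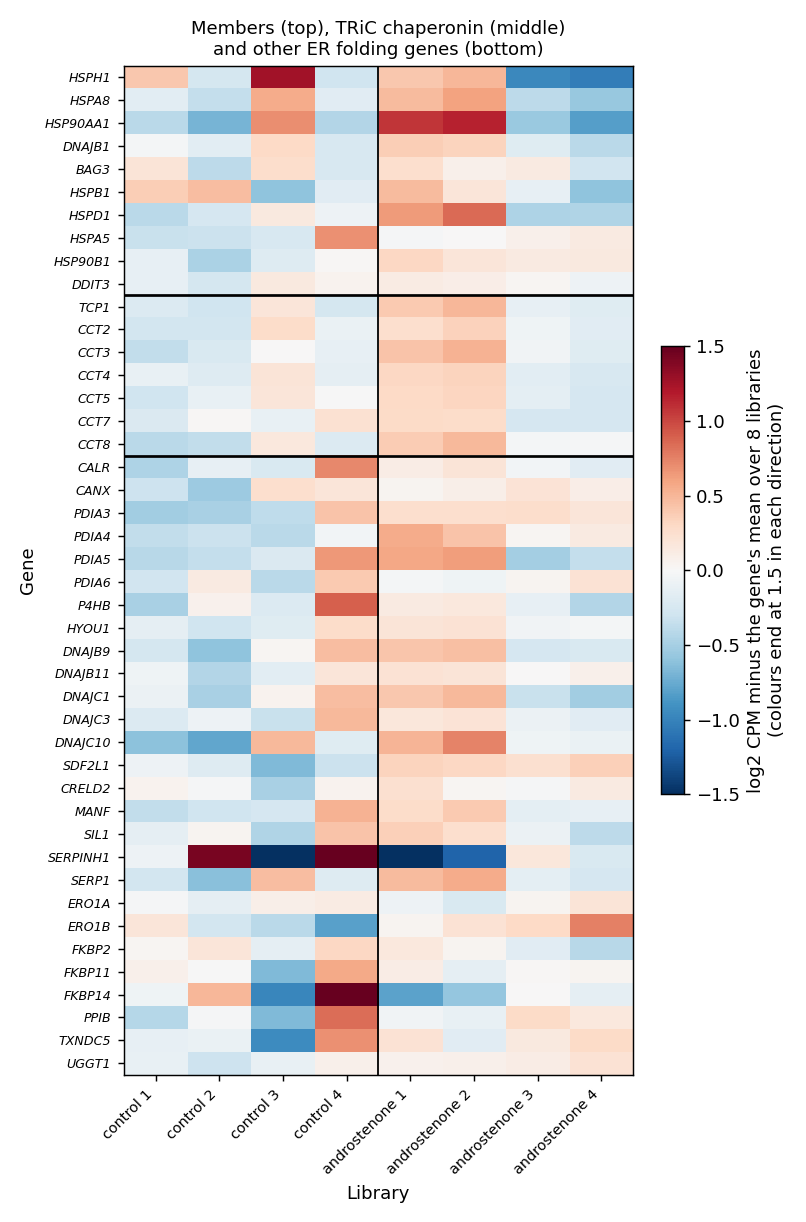
Level of the 10 genes (top), the TRiC chaperonin subunits (middle) and other ER folding genes (bottom) in each library, as log2 CPM minus the mean of the gene over 8 libraries. Red is above and blue below that mean, and colours end at 1.5. Columns control 3, androstenone 1 and androstenone 2 are red for HSPA8, HSP90AA1 and most TRiC subunits, and column control 4 is red for HSPA5 and 16 of 27 ER genes have their highest value there.

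Markers of other cell types moved between the same libraries. The summed level of 9 genes of respiratory ciliated cells was 1340, 618, 3210 and 681 CPM in the controls and 2620, 2880, 849 and 733 CPM in the androstenone libraries, the 3 highest sums being again control 3 and androstenone 1 and 2. None of the 9 was at 0 in all libraries. The summed level of 10 bone and cartilage genes was 163000 CPM in control 4, the library with the highest HSPA5, and 1020 to 13600 CPM in the other 7. The 9 plasma cell markers, XBP1 and DERL3 of the stress lists below among them, summed to 1730 to 8810 CPM in the controls and 5960 to 10700 CPM in the androstenone group. Most of that sum was JCHAIN (1050 to 9580 CPM over all libraries), whereas XBP1 had 253 to 433 CPM and DERL3 25 to 87.3 CPM. The part of these cells in the chaperone levels was not tested.

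Of the other marker sums, that of the erythroid genes divided androstenone 1 and 2 from androstenone 3 and 4. In the nasal gland and immediate early sums the gap between these pairs was smaller than the gaps inside them. The 9 nasal gland genes summed to 2740 to 6350 CPM in the controls and to 5380, 4350, 3960 and 2730 CPM in androstenone 1 to 4. Skeletal muscle (7 genes) stayed at 8.44 to 19.6 CPM over all libraries. The sum of the 6 erythroid genes ran the other way from HSP90AA1 in the androstenone group, at 32, 16.3, 82.2 and 76.1 CPM. In the controls it was 25.7, 49.9, 66 and 192 CPM. Nearly all of that sum was HBB, at 29.6, 14.5, 78.9 and 72 CPM in androstenone 1 to 4. Of the 6 genes, 3 stayed below 1 CPM in every library, so the sum rests mainly on 1 gene. The 12 immediate early genes, which respond within minutes to many stimuli and to tissue handling, summed to 353 to 680 CPM in the controls and to 333, 379, 298 and 318 CPM in androstenone 1 to 4. Their part in the chaperone levels was not tested either. Within the androstenone group, libraries 1 and 2 differed from each other with a chi-square per degree of freedom of 112 and libraries 3 and 4 with 117. Across these pairs it was 738 to 1120. The high and low values of HSPH1, HSPA8, HSP90AA1 and DNAJB1 thus divided the androstenone group as the whole transcriptome did. Those of BAG3 did not, at 77.3, 68.6, 71.6 and 53.2 CPM in androstenone 1 to 4. In the control group the chi-square per degree of freedom was 42.3 to 280 for pairs with control 1, whose count total was low, and 1410 to 3020 for the others. Whether that division follows the sows cannot be told apart here.

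**Figure D4:**
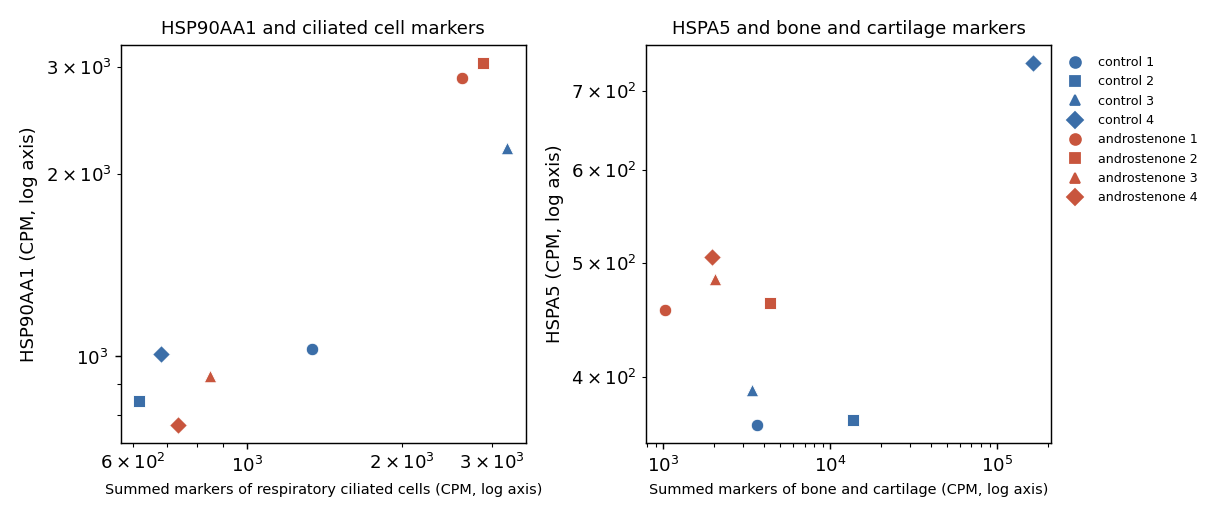
Left, HSP90AA1 against the summed level of 9 ciliated cell markers, and right, HSPA5 against the summed level of 10 bone and cartilage markers, 1 mark per library (CPM, log axes). Control 3 and androstenone 1 and 2 lie at the top right of the left panel, and control 4 stands alone in the right panel at 740 CPM of HSPA5.

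Among 13440 named genes, likeness to the mean of a set was ranked by correlation of log2 CPM over the 8 libraries. Nearest to the mean of the 6 cytosolic and nuclear genes were HEPACAM (r = 0.993), CEP131 (0.985), ZCWPW2 (0.984), MZF1 (0.983) and DNAAF8 (0.983). HEPACAM, for one, had 7.19, 4.46, 15.3 and 4.05 CPM in the controls and 18.4, 18, 3.34 and 1.66 CPM in the androstenone libraries. Nearest to the mean of HSPA5 and HSP90B1 were IER3IP1 (0.971), JARID2 (0.967), PDIA3 (0.965), MIX23 (0.962) and ASAH1 (0.961). PDIA3, a disulfide isomerase of the ER, had 326, 332, 359 and 628 CPM in the controls and 557, 554, 562 and 530 CPM after the spray. These r values only rank likeness, since the 8 libraries come from 4 sows, share depth and preparation, and include a set of 3 that stands apart. Neither mean was a profile that all its genes shared. HSPH1, HSPA8, HSP90AA1 and DNAJB1 correlated with one another at 0.752 or more over the libraries, and BAG3 with these at 0.611 to 0.73. HSPB1 correlated with the rest of the cytosolic set at only 0.076 (BAG3) to 0.313 (DNAJB1). HSPA5 and HSP90B1 correlated at 0.473.

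The rest of the folding and stress machinery was read from 6 lists of 134 genes, of which 127 matched the files and were tested. The median log2 fold change over the 127 was 0.14, with 94 above 0, against -0.02 and 48.2% above 0 over all 21318 genes tested. That background was not matched for level. Of the 21318 genes, 11479 had a mean of at least 10 CPM, whereas 40 of the 44 cytosolic and nuclear genes and all 27 ER folding genes did. The difference of the medians was not tested. At the study's cutoff 0 of the 127 were called higher and 2 lower, against 2.04% and 4.38% of all genes. At an unadjusted p under 0.05, 8 were higher and 5 lower, against 5.09% and 6.24%. Without overlap, 11 were above and 2 below, against 3.89% and 2.64%. The smallest edgeR adjusted p was 0.378, that of EIF2AK2.

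The cytosolic and nuclear list (44 genes tested) had a median log2 fold change of 0.09. HSPA14, a ribosome-associated HSP70 relative, was at 19.3, 19.7, 19.9 and 20 CPM in the controls and at 26.1, 27.4, 33.1 and 35.4 CPM after the spray, with no overlap (log2 fold change 0.63, SE 0.16, edgeR adjusted p = 0.393). DNAJB4, a J-domain partner of HSP70, had 42.4 ± 10.5 CPM in the controls and 25.1 ± 6.84 CPM in the androstenone group, with overlap (log2 fold change -0.76, SE 0.26, edgeR adjusted p = 0.416). BAG2, an HSP70 cochaperone picked after its value was seen as the remaining gene of this list at p under 0.05, had a log2 fold change of -0.65 (SE 0.28, edgeR adjusted p = 0.437). A stress-inducible HSP70 gene of the list, HSP70.2 in the pig annotation and matched through its synonym, was not among the genes of smallest p. It was at 358, 239, 107 and 127 CPM in the controls and at 138, 117, 279 and 148 CPM in the androstenone libraries. Unlike HSPA8, HSP70.2 was lowest in control 3 and androstenone 2 (log2 fold change -0.29, SE 0.44, edgeR adjusted p = 0.8). In this list 18 of 40 genes of at least 10 CPM were highest in control 3 and androstenone 1 and 2, against the 22.9% above, and 14 and 16 of 40 on the other scales.

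TRiC is the ring-shaped chaperonin of the cytosol that folds actin and tubulin. Its 7 subunits tested had a median log2 fold change of 0.18, and the smallest edgeR adjusted p was 0.472. CCT8 was at 122 ± 22.9 CPM in the controls and at 162 ± 30.1 CPM after the spray (SD, n = 4), with 181 and 195 CPM in androstenone 1 and 2. CCT3 was at 143, 157, 185 and 169 CPM and at 248, 264, 178 and 163 CPM. Of the 7 subunits, 6 had the 3 libraries named above on top, on all 3 scales. In the mitochondrial list (13 genes, median 0.12) HSCB, which helps assemble iron-sulfur clusters, had 11.8 ± 1.36 CPM in the controls and 15.9 ± 2.01 CPM after the spray without overlap (log2 fold change 0.43, SE 0.18, edgeR adjusted p = 0.435). DNAJC19, of the mitochondrial import motor, had a log2 fold change of 0.25 (SE 0.17, edgeR adjusted p = 0.582), and HSPE1, the cofactor of HSPD1 and chosen for that, one of 0.24 (SE 0.22, edgeR adjusted p = 0.667).

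The ER folding list held 27 genes, all tested, with a median log2 fold change of 0.16. PDIA4, a disulfide isomerase, was at 270, 278, 263 and 338 CPM in the controls and at 514, 469, 356 and 383 CPM in the androstenone libraries. SDF2L1, a partner of HSPA5, was at 18.3, 16.9, 12.2 and 15.4 CPM and at 24.3, 23.9, 22.8 and 24.7 CPM. As in HSP90B1, neither gene had any overlap between the groups, with log2 fold changes of 0.58 (SE 0.19, edgeR adjusted p = 0.416) and 0.61 (SE 0.17, edgeR adjusted p = 0.393). ERO1B, an oxidase that recharges these isomerases and named after its value was seen, had 0.65 (SE 0.25, edgeR adjusted p = 0.418) with overlap. Every androstenone library was above every control library in 2 of the 27 genes here and in 4 of the 44 cytosolic and nuclear genes. The share over all genes tested was 3.89%.

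SERPINH1, the collagen chaperone, fell at the study's cutoff, with a log2 fold change of -2.55 (SE 1.04, edgeR adjusted p = 0.429). Its levels were 118, 334, 35.9 and 1470 CPM in the controls and 34.1, 54, 140 and 106 CPM in the androstenone libraries, so the groups overlapped and the highest value was that of control 4, where the bone and cartilage sum was highest too. Without control 4 the log2 fold change was -0.95, and the call of SERPINH1 was lost in turn without control 2 (-2.69), control 4, androstenone 1 (-2.29), androstenone 2 (-2.41) or androstenone 4 (-2.69). Of the 27 ER genes 16 (59.3%) had their highest value in control 4, against 24.7% of the genes of at least 10 CPM, and only 2 were highest in control 3 and androstenone 1 and 2. In CPM of the plain library total the first count was 4 of 27 against 7.52% of genes, and in TPM 9 of 27 against 14.1%.

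ER-associated degradation sends misfolded proteins back to the cytosol for destruction. Its 13 genes had the highest median of the lists, 0.23, with no edgeR adjusted p under 0.441. HERPUD1, which organises the export complex, was at 192 ± 17.9 CPM in the controls and 244 ± 18 CPM after the spray. EDEM3, which trims sugars of misfolded glycoproteins, was at 65.1, 57.4, 89.1 and 89.4 CPM and at 104, 103, 90 and 106 CPM. Neither overlapped between the groups, with log2 fold changes of 0.35 (SE 0.15) and 0.42 (SE 0.19) and edgeR adjusted p of 0.441 for both. In 3 of the 13 genes, HERPUD1 and EDEM3 among them, every androstenone library was above every control library, against 3.89% of all genes tested.

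The list of unfolded protein response and integrated stress response regulators (23 genes tested, median 0.22) surrounds DDIT3. EIF2AK2, the kinase PKR that answers to double-stranded RNA, was at 67.4, 56.2, 81.8 and 44.3 CPM in the controls and at 112, 109, 120 and 109 CPM in the androstenone libraries, with no overlap (log2 fold change 0.85, SE 0.2, edgeR adjusted p = 0.378). CREB3L2, an ER membrane transcription factor of secretory cells, was at 69, 75.4, 65.1 and 125 CPM in the controls and lower without overlap at 45.1, 42.8, 59.6 and 58.7 CPM after the spray (log2 fold change -0.7, SE 0.25, edgeR adjusted p = 0.416). DDIT4, an inhibitor of mTORC1, fell at the study's cutoff, with a log2 fold change of -1.11 (SE 0.46, edgeR adjusted p = 0.43), from 192, 203, 67.8 and 406 CPM to 122, 105, 93.2 and 81.7 CPM, with overlap and with control 4 again the highest. The call of DDIT4 was lost without control 4 (-0.62) and without each of the other libraries except control 3 (-1.02 to -1.22). ERN1 and EIF2AK1, sensors of ER and of heme stress and named after their values were seen, had log2 fold changes of 0.42 (SE 0.17, edgeR adjusted p = 0.421) and 0.39 (SE 0.16, edgeR adjusted p = 0.422).

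**Figure D5:**
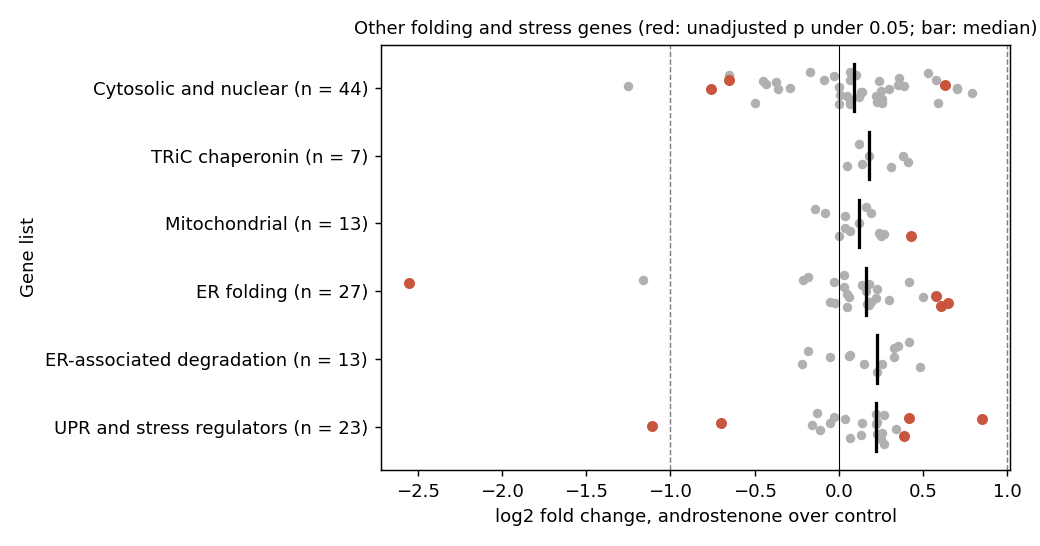
Log2 fold change, androstenone over control, of the 127 other folding and stress genes, 1 dot per gene and 1 row per list. Red dots have an unadjusted p under 0.05, black bars are list medians, and dashed lines mark the study's fold cutoff of 1. The medians lie between 0.09 and 0.23, and SERPINH1, at -2.55, is the dot at the far left.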

How the data were processed

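RNA-seq of 8 OE libraries was used. The authors cleaned reads with fastp 0.23.1, quantified them with Kallisto 0.48.0 on Ensembl release 108 transcripts of Sscrofa11.1, and deposited an estimated count for each gene and library, not normalized and often fractional. The deposited TPM are scaled by transcript length and by library. The sources used here do not say how transcripts were joined into genes. Names came from a name table that matched 15527 of 22516 identifiers, and positions from RefSeq.

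Estimated counts were rounded, the 21318 genes with at least 1 count kept, TMM factors computed, and condition tested with edgeR 4.0.16 (quasi-likelihood, all 8 libraries, R 4.3.3), with Benjamini-Hochberg adjustment over all genes. The study's methods give the cutoff but no edgeR test or filter. Exact permutation tests of single genes ran over 70 assignments of libraries. CPM are of the TMM-scaled total, and log2 CPM use a prior count of 2. Count totals were 4178330 in control 1 and at least 81580146 elsewhere. Counting error covers counting only, since PCR copies are not independent molecules.

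The members and lists were chosen with earlier results of these data known. Named were the members, the 2 genes of smallest p in each list with those past the cutoff, and the 5 genes nearest to each profile. HSP70.2, HSP90AB1 and HSPE1 were named outside this rule. BAG2, ERO1B, ERN1 and EIF2AK1 are marked as chosen after their values were seen. Alternatives were the likelihood ratio and exact tests of edgeR, DESeq2 1.42.0, limma 3.58.1 (voom, and log2(TPM + 0.1) and log2(TPM + 1)), RLE, library size only, filterByExpr, the replicate number as a block, and each library left out. Leaving out control 1 and 4 together, and the other scales for library counts, were alternatives chosen after seeing the data. The tests were checked on simulated counts of independent libraries with a fixed dispersion. That setting had no shared sows and no composition shift like that of control 4, so it does not cover the spread of the real libraries. Sequences were not analysed here.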

Additional observations from a re-analysis of the deposited data

Results flagged for a closer look

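Within a group of 4 libraries, a value was set apart where its gap to the nearest other value, divided by the range of the group, passed Dixon's 95% limit for 4 values. Over 48 such groups 3 values passed, and chance sets apart about 1 in 20. HSPA8 in control 3 had a gap of 0.838 of the range (1500 CPM against 909 CPM in the next control). HSP90AA1 in control 3 had 0.861 (2210 CPM against 1030 CPM). HSPA5 in control 4 had 0.93 (740 CPM against 390 CPM). Control 3 had the highest ciliated marker sum of the controls and control 4 the highest bone and cartilage sum, and the part of either in these values was not tested. In CPM of the plain library total, HSPA5 in control 4 was 508 against 424 in control 1.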

How the results depend on the processing

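No member was called at the study's cutoff under any of the 19 alternatives, and no member passed after adjustment under any. The counts of calls over all genes moved more. Main, likelihood ratio, exact, DESeq2, voom, RLE, library size only and filterByExpr gave 1368, 1978, 1594, 1489, 978, 1387, 1217 and 1085 genes, limma on log2(TPM + 0.1) and log2(TPM + 1) 718 and 319, and controls 1 and 4 left out together 881. Leaving out 1 library gave 867 (without androstenone 1) to 2414 (without control 3). The share of calls that were higher in androstenone, 31.7% in the main fit, was 47.6% on log2(TPM + 1). In the 6 lists 2 genes were called in the main fit, 1 with library size only, 0 with voom, both TPM scales and controls 1 and 4 left out, and 0 to 6 with 1 library left out (6 without control 3, of which 3 higher).

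The replicate numbers did not pair the libraries, since the same-numbered deviations correlated at -0.0351, -0.498, -0.599 and 0.173. With the replicate number as a block 583 genes, 0 members and 0 list genes were called.

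Of 190 fits of single members 26 turned direction, none of them past a threshold and all in members with small differences. HSPA8 was -0.05 on both TPM scales, -0.09 without controls 1 and 4, and -0.12 to 0.34 with 1 library left out. DNAJB1 was -0.04 on both TPM scales, -0.06 without controls 1 and 4, and -0.03 to 0.22. BAG3 was -0.02 on both TPM scales and -0.03 to 0.18. HSPA5 was -0.0028 on both TPM scales and -0.07 to 0.35. DDIT3 was -0.02 on both TPM scales. HSPB1 was 0.02 with voom and -0.23 to 0.12 with 1 library left out. HSP90B1 kept its direction, from 0.28 to 0.48, as did HSPH1, HSP90AA1 and HSPD1. Its unadjusted p was 0.0154 with DESeq2 and 0.17 at most. Of the named list genes HSPA14, SDF2L1 and EIF2AK2 stayed under an unadjusted p of 0.05 in all 19, SERPINH1 in 9 and DDIT4 in 7. All were named for their p or their call in these same libraries, so these counts are no independent support. In the main fit the edgeR adjusted p of HSPA14, SDF2L1 and EIF2AK2 was 0.378 to 0.393. The causes were not tested. The low count total limits control 1 most, and 4 libraries from 2 sows limit every interval.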
